A study of Mus musculus with 223 samples.

Results

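The 8 genes described here encode the proteins that build the hyaluronan-rich matrix around neurons. They are the lecticans versican (Vcan), neurocan (Ncan), brevican (Bcan) and aggrecan (Acan), the link proteins Hapln1 and Hapln4, and the tenascins Tnr and Tnc. They were chosen by name out of 43629 genes counted, after pooled levels and shares of cells had been looked at in each age and type, in which Vcan and Hapln1 were seen to differ by type. The differences of these genes between types and ages are therefore given as a description, with no test.

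Lecticans are chondroitin sulphate proteoglycans. One end of the core protein binds hyaluronan, a long sugar chain spun out at the cell surface, and a link protein clamps that contact. The other end binds tenascins, of which Tnr is a trimer that ties lecticans to each other. In the young brain the matrix is loose and rich in versican and neurocan. Later, aggrecan, brevican and the link proteins gather into perineuronal nets, the dense coats that wrap some mature interneurons (INs), those with parvalbumin above all.

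Counts came from single GFP+ cells sorted from the whole cortex of Htr3a-GFP mice, in which the GFP is driven by regulatory sequences of Htr3a, the gene of a serotonin receptor carried by INs of the caudal ganglionic eminence. Every cell of every group carries this transgene, and no untreated or GFP-negative cells were compared. There were 82 cells at embryonic day 18 (E18), 66 at postnatal day 2 (P2) and 75 at P5. The authors had assigned the postnatal cells to types from these same counts, 22, 31 and 13 cells to types 1, 2 and 3 at P2 and 34, 19 and 22 cells at P5, while E18 cells were left unassigned and are 1 group here.

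Each age was a pool of brains and the labels name no animal, so a group is 1 sample, cells are not replicates, and no difference has a replicate check. RPM values are counts of read pairs scaled to a fixed total of 1000000 mapped read pairs per cell. A cell had between 3707600 and 15840100 such pairs (to 6 digits). A pooled RPM sums the read pairs of a group's cells before scaling, so a deep cell weighs more. Its 95% interval is the exact Poisson one, and that of a share of cells over 10 RPM is the exact binomial (Clopper-Pearson) one. Where no cell of a group was above 10 RPM, the share that this allows is given as 3 cells of the group's total. All of these cover counting error only, since PCR copies carry no molecular identifiers and are not independent molecules. A pooled level cannot tell fewer cells with the transcript from less of it per cell, so the share of cells is given beside it. The labels also give each cell 1 of 4 set numbers, written A, B, C and D here. What a set stands for is not given in the sources used here. All P2 cells are in set A, which no cell of another age shares, so P2 and its library set cannot be told apart.

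Vcan and Hapln1 are neighbours. Vcan lies at chr13:89655312-89742509 on the minus strand of GRCm38 and Hapln1 at chr13:89539796-89611652 on the plus strand, so their ends face each other across 43.7 kb with no annotated gene between them. The other lecticans sit beside a link protein gene as well. Ncan at chr8:70093085-70120873 is 2.22 kb from Hapln4, Bcan at chr3:87987531-88000230 is 21.5 kb from Hapln2, and Acan at chr7:79053483-79115099 ends 2 bases before Hapln3. Tnr is at chr1:159523769-159931729 and Tnc at chr4:63959785-64047015. A small share of their exon bases, 3.44% for Tnr and 2.26% for Tnc, overlaps a gene on the other strand, and whether counting used strand is not given in the sources used here.

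The promoters of Vcan and Hapln1 are shown because these neighbours had unlike patterns in the cells. RefSeq's promoter table for GRCm38.p6 covered 7 of the 8 genes, all but Hapln4, with 300 bases each, 250 before the start and 50 after it. The Vcan window is chr13:89742463-89742762 on the minus strand and the Hapln1 window is chr13:89540386-89540685 on the plus strand. Motifs were searched on both strands and are in capitals where found, namely the TATA box TATAAA, the GC box GGGCGG, the CCAAT box, the MEIS motif TGACAG and the AP-1 motif TGANTCA. None of the matches shown overlaps another.
Vcan: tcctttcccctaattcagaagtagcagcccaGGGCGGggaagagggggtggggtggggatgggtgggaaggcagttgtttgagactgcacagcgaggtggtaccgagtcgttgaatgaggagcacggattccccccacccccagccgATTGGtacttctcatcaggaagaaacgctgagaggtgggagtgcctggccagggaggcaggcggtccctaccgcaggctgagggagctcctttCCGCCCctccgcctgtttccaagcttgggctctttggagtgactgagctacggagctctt
Hapln1: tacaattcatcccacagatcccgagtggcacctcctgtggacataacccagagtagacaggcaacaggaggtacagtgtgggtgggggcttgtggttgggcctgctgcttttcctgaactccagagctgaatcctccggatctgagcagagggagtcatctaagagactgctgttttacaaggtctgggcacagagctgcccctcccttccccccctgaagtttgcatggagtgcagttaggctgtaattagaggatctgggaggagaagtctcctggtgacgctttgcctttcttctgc
The Vcan window holds 2 GC boxes and 1 CCAAT box and has a GC content of 61% with 12 CpG. GC boxes occur in 35.7% of all 32851 windows of the table and CCAAT boxes in 37.4%. None of the 5 motifs has its letters in the Hapln1 window, which has a GC content of 54.3% and 3 CpG. In all windows the median GC content is 52.7% with 7 CpG, and TATAAA occurs in 13.6%, TGACAG in 19.2% and TGANTCA in 7.81%. A match is a description of the letters and not a sign of binding.

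Vcan, the large lectican of immature matrix, had its highest levels in type 1 INs at both ages. At P2 its pooled level in type 1 was 440.3 RPM (95% interval 437.6 to 443.1), with 13 of 22 cells above 10 RPM. In types 2 and 3 it was 82.3 RPM (81.3 to 83.3) with 13 of 31 cells and 167.5 RPM (164.8 to 170.3) with 4 of 13 cells. Single cells ran from 0 to 2914 RPM in type 1 with a median of 36.3, from 0 to 469 with a median of 2.08 in type 2, and from 0 to 724 with a median of 0.308 in type 3. The ranges overlapped, and the highest single cells were in type 1.

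At P5 the Vcan level in type 1 was 510.0 RPM (507.7 to 512.4), and 24 of 34 cells were above 10 RPM. Type 2 had 156.04 RPM (154.2 to 157.9) with 9 of 19 cells and type 3 had 49.7 RPM (48.7 to 50.8) with 4 of 22 cells. Type 1 cells ran from 0 to 2283 RPM with a median of 119.04, type 2 cells from 0 to 1091 with a median of 7.35 and type 3 cells from 0 to 669 with a median of 0.159. The share of type 1 cells above 10 RPM was 70.6% (52.5 to 84.9) and that of type 3 cells 18.2% (5.19 to 40.3). Vcan was chosen after such shares had been seen, so nothing is read from the distance between these intervals. Among cells above 10 RPM, the median Vcan level was 480.0 RPM in type 1, 376 in type 2 and 229 in type 3.

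E18 cells had 147.3 RPM of Vcan (146.4 to 148.1), with 39 of 82 cells above 10 RPM, a median of 1.81 and a highest cell of 1769 RPM. In order, the pooled levels ran from P5 type 1 and P2 type 1 over P2 type 3, P5 type 2 and E18 to P2 type 2 and P5 type 3. The order of P2 type 3, P5 type 2 and E18 rests on single cells. Without the highest cell of each group these were at 119.3, 113.5 and 121.03 RPM, while P5 type 1 was at 463, P2 type 1 at 318, P2 type 2 at 69 and P5 type 3 at 26.2 RPM.

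**Figure D1:**
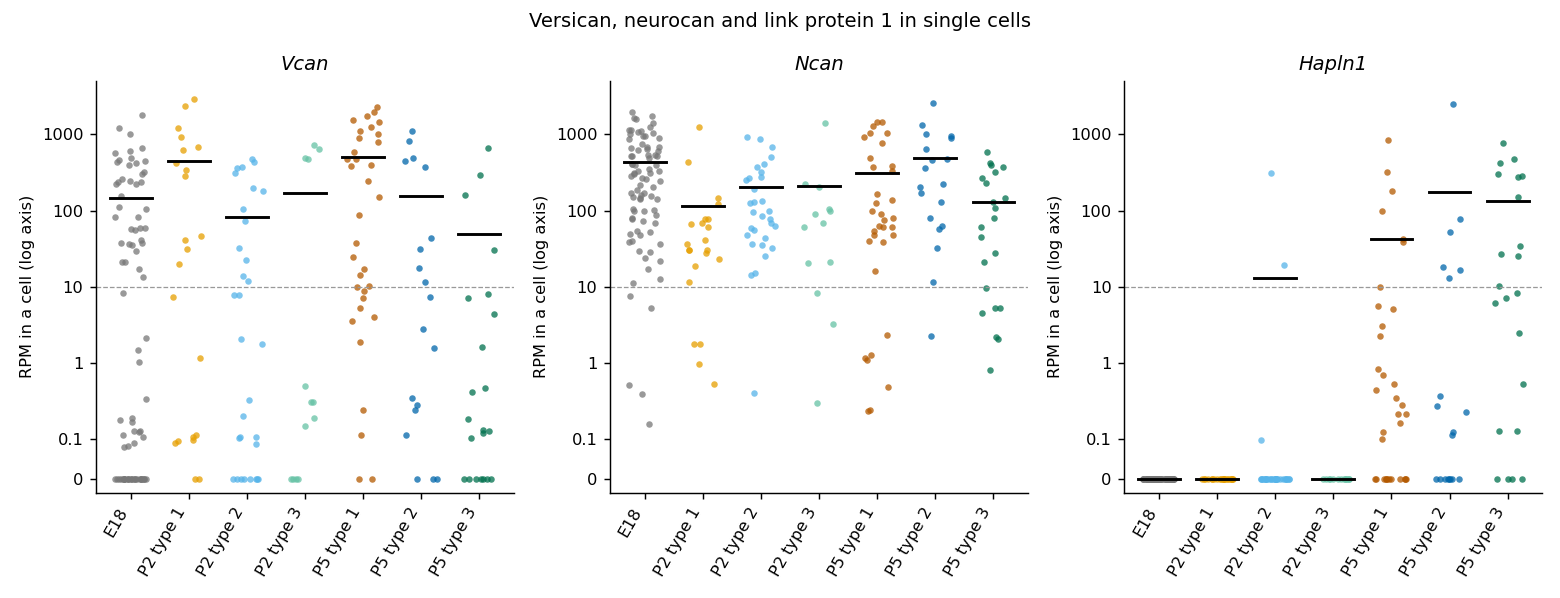
RPM of Vcan, Ncan and Hapln1 in every cell by group, on a log axis with cells without a read pair drawn at 0. Black lines are pooled RPM and the dashed line is 10 RPM. Vcan is above the line in 24 of 34 P5 type 1 cells and 4 of 22 P5 type 3 cells, Ncan in most cells of every group, and Hapln1 in no E18 cell and 11 of 22 P5 type 3 cells.

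Between a type and the other types of its age, log2 folds of pooled RPM were computed with 1 RPM added to both sides. A gene could be tested where 25% or more of the cells in either group were above 10 RPM, and it was called where the fold was at least 2 and the higher group met that share. Vcan was called higher in type 1 at P2 (log2 fold of 2.12, 36.6% of 3211 tested genes called either way) and at P5 (2.28, 36.2% of 3940 genes). It was called lower in type 2 at P2 (-2.14, 33.1% of 3400 genes) and at P5 (-1.19, 33.9% of 4673 genes), and in type 3 at P5 (-2.94, 54.3% of 4081 genes). Lhx6, a transcription factor of medial ganglionic eminence INs, was called higher in type 2 at P2 (2.68), where 5 cells had at least 2 of the 5 transcripts of such INs described below, and without these and 2 like cells of type 3 the fold of Vcan was -1.97 in type 2 and 1.86 in type 1. In type 3 at P2 its log2 fold of -0.47 was not called, where 52.4% of 2935 genes were. Over all genes tested in type 3 at P5 the median log2 fold was itself -0.74, and 34.1% of the mapped read pairs of these cells fell on genes against 57.3% in the other types. Scaled to counts on genes that median was -0.0040 and the fold of Vcan was -2.20. The choice of the genes used these same contrasts, so nothing is read from the counts. Of the 8 genes, 2 passed the low-value filter at P2 (Vcan and Ncan) and 3 at P5 (with Hapln1), and the other genes were too rarely above 10 RPM to be called.

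Within P5 the Vcan levels could be compared inside library sets B, C and D. Type 1 had 255 RPM in 11 cells of set B, 1010 RPM in 11 cells of set C and 278 RPM in 12 cells of set D. Type 2 had 368, 116.3 and 126.5 RPM in 2, 3 and 14 cells, and type 3 had 0.0692, 0.0479 and 62.4 RPM in 2, 3 and 17 cells. Type 1 was thus above type 3 in each set and above type 2 in sets C and D but not in set B. In set B the log2 fold of type 1 against the other types was 0.15. The 2 type 2 cells of set B include 1 with oligodendrocyte lineage transcripts, described below, which held 1091 RPM of Vcan.

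**Figure D2:**
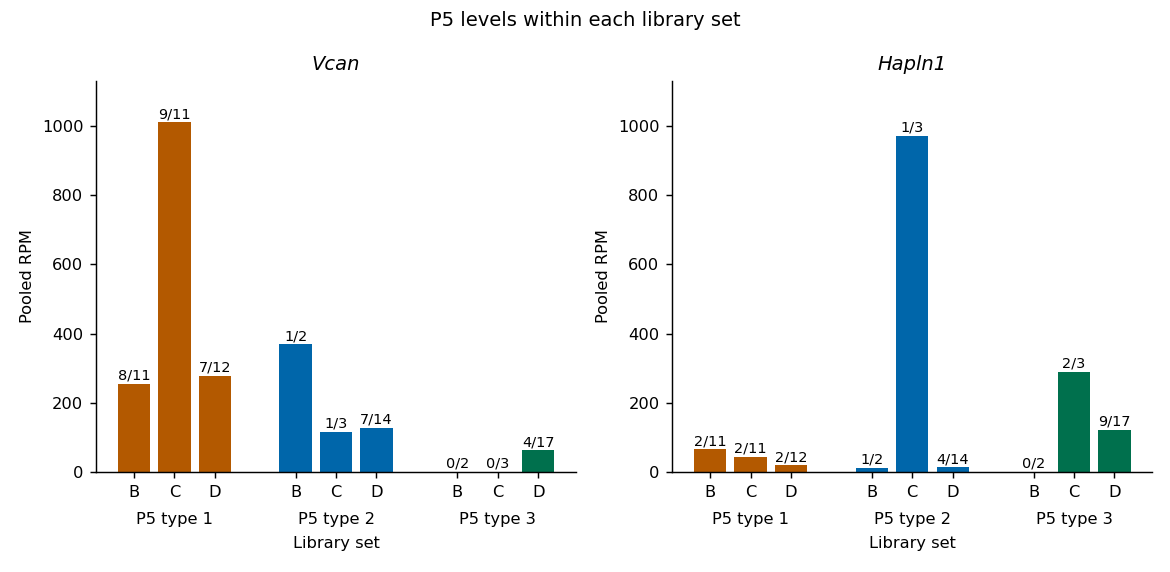
Pooled RPM of Vcan and Hapln1 at P5 in each library set and type, with the count of cells above 10 RPM and of all cells over each bar. Type 1 has the tallest Vcan bars in sets C and D, and the tallest Hapln1 bar, 972 RPM, comes from 1 of the 3 type 2 cells of set C.

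Inside types 1 and 2, the share of cells with Vcan was higher among those that also had Meis2, the transcription factor that marks type 1. At P2, 10 of 13 type 1 cells above 10 RPM of Meis2 were above 10 RPM of Vcan, against 3 of 9 type 1 cells without Meis2. All 3 type 2 cells with Meis2 had Vcan at P2, against 10 of 28 without it. At P5, 5 of 7 type 2 cells with Meis2 had Vcan, against 4 of 12 without it, but 4 of those 7 cells carried glial transcripts (described below) and 2 of the remaining 3 had Vcan. In type 3 there was 1 cell with Meis2 at each age. It had Vcan at P2, against 3 of 12 cells without Meis2, and lacked it at P5, against 4 of 21 cells without Meis2 that had it. In P5 type 1, 24 of 33 cells with Meis2 had Vcan and the 1 cell without Meis2 did not. At E18 the shares were close, with 6 of 11 cells against 33 of 71, and the pooled Vcan level was lower in cells with Meis2, 83.5 RPM against 157.8 RPM. Meis2 was among the counts that the types were drawn from.

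Ncan, the lectican most typical of developing brain, was the most widespread of the 8 transcripts. Every cell had at least 1 read pair of it and 87.4% were above 10 RPM. At E18 its pooled level was 433.5 RPM (432.1 to 435.0), with 77 of 82 cells above 10 RPM and cells between 0.16 and 1935 RPM around a median of 263. At P2 it was 116.4 RPM (114.97 to 117.8) in type 1, 203.7 RPM (202.1 to 205.3) in type 2 and 208.8 RPM (205.7 to 211.9) in type 3, with 18 of 22, 30 of 31 and 10 of 13 cells above 10 RPM. Single cells ran from 0.536 to 1233 RPM around a median of 33.6 in type 1, from 0.404 to 928 around 95 in type 2, and from 0.294 to 1425 around 68.8 in type 3, so the types overlapped. The type 3 level rests on 1 cell of 1425 RPM, which gave 65.9% of its read pairs, and was 78.8 RPM without it, and the type 1 level was 65 RPM without its highest cell.

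At P5 the Ncan levels were 312 RPM (310.4 to 314) in type 1, 488 RPM (485 to 491) in type 2 and 128.9 RPM (127.2 to 130.6) in type 3, with 27 of 34, 18 of 19 and 15 of 22 cells above 10 RPM. Single cells ran from 0.232 to 1453 RPM around a median of 78.2 in type 1, from 2.23 to 2609.8 around 220.7 in type 2, and from 0.813 to 586 around 70.5 in type 3, so the types overlapped again. In order, P5 type 2 and E18 stood highest, followed by P5 type 1, P2 types 3 and 2, P5 type 3 and P2 type 1. Without each highest cell E18 led with 416 RPM over P5 type 2 with 365 RPM. The share of cells above 10 RPM was 93.9% (86.3 to 98) at E18 and 68.2% (45.1 to 86.1) in P5 type 3, with intervals that cover counting error only.

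Ncan was called lower in type 3 at P5 (log2 fold of -1.53, beside the median of -0.74 over all genes tested), a call that was lost when scaled to counts on genes (-0.78), and it was called in no other contrast between types. Without the highest cell of the type it was called lower at P2 in type 1 (-1.64) and in type 3 (-1.07). With all cells kept these log2 folds were -0.81 and 0.32. The trimmed values leave out a cell of the type alone, and nothing is read from their calls. Without the P2 cells with transcripts of medial ganglionic eminence INs Ncan was called lower in type 1 (-1.004). It was called higher in type 2 at P5 once the top cell among types 1 and 3 was left out (1.08). This value trims the other types alone, and nothing is read from its call either. Between ages it was lower at P2 than at E18 (log2 fold of -1.32, with 20.6% of 3664 genes called). This call was lost without the 44 E18 cells with transcripts of medial ganglionic eminence INs, described below (-0.90). From P2 to P5 it was higher in type 1 (1.42, with 37.6% of 3500 genes called) and in type 2 (1.26, with 36.9% of 4756 genes called), and its value in type 3 was -0.69 (with 53.9% of 2960 genes called), which turned to 0.70 without the highest P2 cell. The type 2 call was lost without the highest P5 cell (0.84) and without the cells with glial transcripts (0.30). The value of 0.84 trims P5 alone, and nothing is read from that loss. With the highest cell of each age left out, Ncan in type 2 was at 365 RPM at P5 and 180.2 RPM at P2. Over all cells from P2 to P5 the log2 fold of 0.85 was not called, where 19.4% of 3415 genes were, and without the highest P2 cell it was 1.001 and called. That value trims the lower age alone, and nothing is read from its call. Without the highest cell of each age the levels were 155.9 RPM at P2 and 279.8 RPM at P5. E18 and P5 share library sets, and there the Ncan levels were 470 and 252 RPM in set B, 364 and 305 RPM in set C, and 385 and 340.0 RPM in set D, with E18 above P5 in each. Without the same 44 cells E18 was at 322 RPM over all sets, beside 313 RPM over all P5 cells.

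Bcan and Acan, lecticans of the maturing matrix, were rare. Bcan was above 10 RPM in 10 cells, 2 at E18, 1 in P2 type 2, 3 in P5 type 1 and 4 in P5 type 2. Its pooled levels were 0.493 RPM (0.445 to 0.545) at E18, 1.17 RPM (1.05 to 1.30) in P2 type 2, 16.4 RPM (16.0 to 16.9) in P5 type 1 and 29.6 RPM (28.8 to 30.4) in P5 type 2. No read pair fell on it in P2 types 1 and 3, and 2 did in P5 type 3. The 3 P5 type 1 cells held 338, 185.99 and 21.7 RPM, and these 3 cells had 1106, 1448 and 592 RPM of Vcan. All 4 P5 type 2 cells with Bcan carried glial transcripts, and no read pair of Bcan was found in the other 15 type 2 cells.

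Acan, the core of the adult perineuronal net, was above 10 RPM in 3 cells, with 79.3 RPM in 1 E18 cell, 16.0 RPM in 1 P2 type 2 cell and 79 RPM in the P5 type 2 cell with oligodendrocyte lineage transcripts. Only 6 cells had a read pair of it. In P5 type 1, 0 of 34 cells had Acan above 10 RPM, which allows a share of up to 8.82%, and in P5 type 3, 0 of 22 cells, which allows up to 13.6%.

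**Figure D3:**
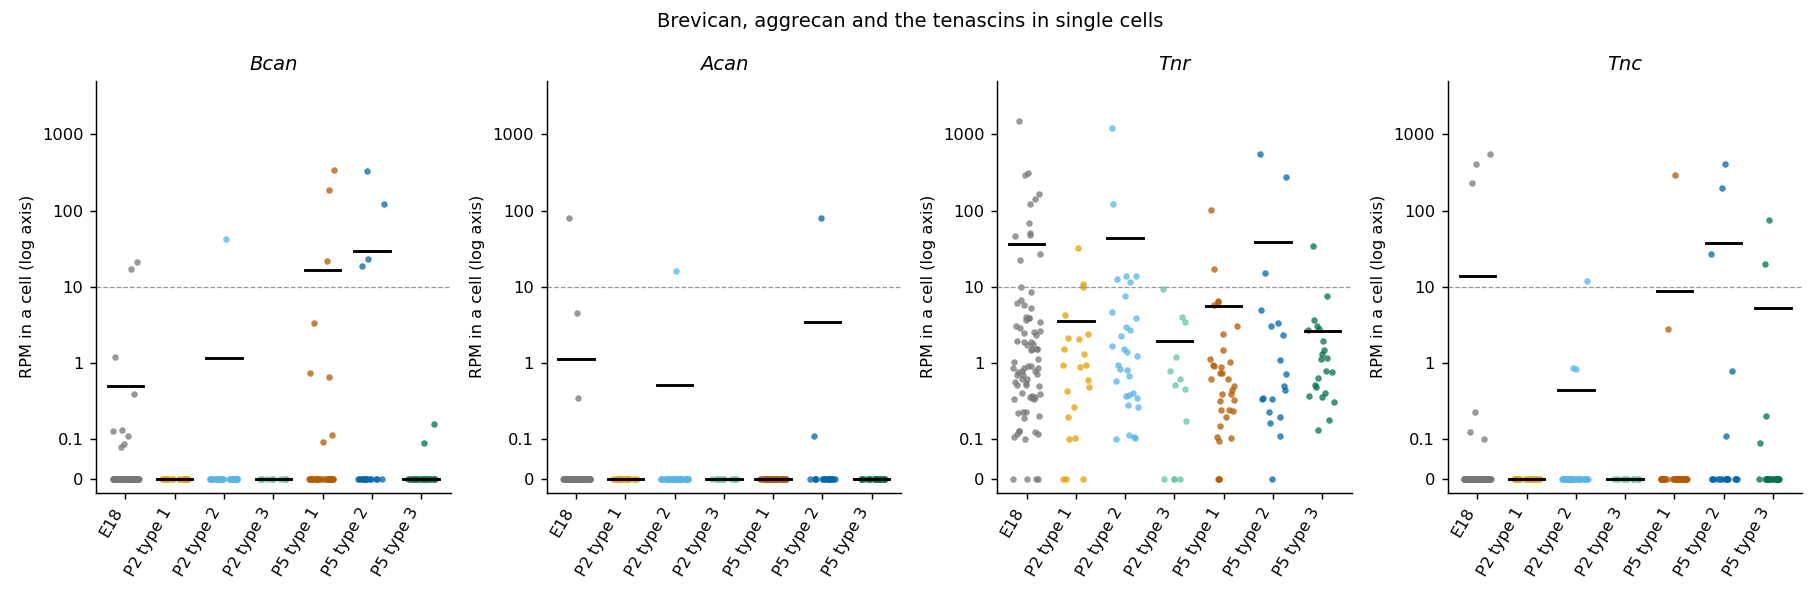
RPM of Bcan, Acan, Tnr and Tnc in each cell by group, drawn like the plot of Vcan, Ncan and Hapln1 (log axis, 0 at the bottom, pooled RPM as black lines, 10 RPM dashed). Bcan, Acan and Tnc are at 0 in most cells, while Tnr has a read pair in 93.3% of cells and is above 10 RPM in 26 of them.

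Hapln1, the link protein that ties lecticans to hyaluronan, was found mainly at P5. No read pair of it fell in any of the 82 E18 cells, which allows a share of up to 3.66% above 10 RPM, nor in the 22 type 1 and 13 type 3 cells at P2 (up to 13.6% and 23.1%). At P2 it was found in type 2 alone, in 3 of 31 cells, at 315, 19.2 and 0.10 RPM. Its pooled level there was 13.1 RPM (12.7 to 13.5), of which 1 cell gave 95.4% of the read pairs.

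At P5, 51 of 75 cells had a read pair of Hapln1 and 23 were above 10 RPM. Type 3, the type with the least Vcan, had the largest share, 11 of 22 cells (50%, 28.2 to 71.8), against 6 of 19 cells (31.6%, 12.6 to 56.6) in type 2 and 6 of 34 cells (17.6%, 6.76 to 34.5) in type 1, so that the intervals overlapped. The medians of single cells were 9.40 RPM in type 3, 0.124 in type 2 and 0.251 in type 1, with highest cells of 761, 2503 and 831 RPM. Among cells above 10 RPM the medians were 276, 35.6 and 139.3 RPM.

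The pooled levels of Hapln1 did not follow the shares. Type 2 had 177.2 RPM (175.3 to 179.1), type 3 had 132.2 RPM (130.5 to 133.97) and type 1 had 41.8 RPM (41.1 to 42.5). A single type 2 cell of 2503 RPM gave 93.9% of the type 2 read pairs. It had 164.1 RPM of Gad1 and 1501 RPM of Gad2, the GABA-synthesising enzymes of INs, and no read pair of any of the 8 oligodendrocyte lineage genes listed below. Of the 8 astrocyte and radial glia genes it had 491.9 RPM of Slc1a2 and 2 read pairs of Slc1a3, both glutamate transporters, and none of the other 6. Without the highest cell of each type the levels were 11.6 RPM in type 2, 103.5 RPM in type 3 and 23.8 RPM in type 1.

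At P5 Hapln1 was called higher in type 2 (log2 fold of 1.29) and lower in type 1 (-1.87), and its log2 fold in type 3 was 0.57 and not called. Without the cell of 2503 RPM Hapln1 was called lower in type 2 (-2.53) and higher in type 3 (2.02), and was not called in type 1 (-0.78). Scaled to counts on genes, with all cells kept, it was called higher in type 3 (1.32) and no longer in type 2 (0.96). Within library sets at P5 type 3 had 0.0692, 290 and 122.3 RPM in sets B, C and D, and type 1 had 65.7, 43 and 18.7 RPM. Type 2 had 11.1, 972 and 13.4 RPM. Type 3 was above type 1 in sets C and D, where 2 of 3 and 9 of 17 of its cells were above 10 RPM, and not in set B, where 0 of 2 were.

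Between P2 and P5, Hapln1 was called higher in type 2 (log2 fold of 3.66), in type 3 and over all cells (3.74). Without the cell of 2503 RPM the fold was -0.16 in type 2, which ends that call, and 2.94 over all cells. Without the highest P2 cell it was 6.77 in type 2 and 6.26 over all cells. Each of these values leaves out a cell of 1 age alone. With the highest cell of both ages left out, Hapln1 in type 2 was at 11.6 RPM at P5 and 0.632 RPM at P2. With all cells kept, 6 of 19 and 2 of 31 type 2 cells were above 10 RPM. Types 1 and 3 had no read pair at P2, so no fold is given, and under 25% of the P5 type 1 cells were above 10 RPM. The P2 cells are all in library set A, but E18 and P5 share sets. There Hapln1 was above 10 RPM in 0 of 48 E18 cells and 3 of 15 P5 cells of set B, in 0 of 9 and 5 of 17 cells of set C, and in 0 of 25 and 15 of 43 cells of set D.

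**Figure D4:**
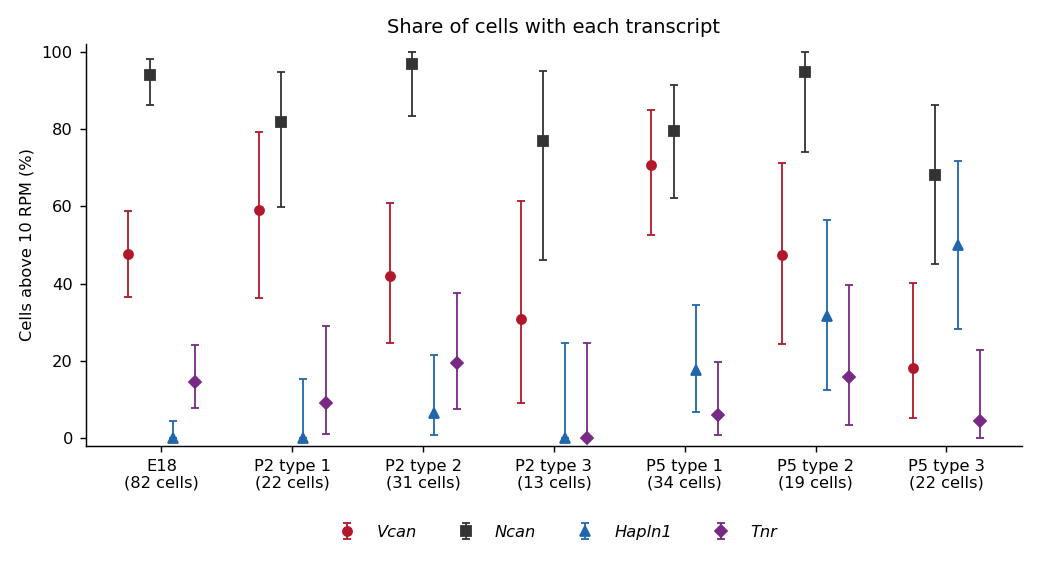
Share of cells above 10 RPM of Vcan, Ncan, Hapln1 and Tnr in each group, with exact 95% binomial intervals that cover counting error only. Hapln1 goes from 0 of 82 cells at E18 to 11 of 22 cells in P5 type 3, the group with the lowest Vcan share, 18.2%.

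Hapln4, a link protein of perineuronal nets, had no read pair in any cell, which allows a share of up to 1.35% above 10 RPM. Its neighbour Ncan was present in all cells. Of the other link proteins, Hapln2 had no read pair either and Hapln3 was above 10 RPM in 1 cell, of P5 type 2. The further tenascins Tnn and Tnxb had at most 1 cell above 10 RPM in a group. In 3 of the 4 lectican and link protein pairs the link protein gene was thus at or close to 0, and Hapln1 beside Vcan was the exception.

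Vcan and Hapln1 were counted together in the same cells at P5. Of 75 cells, 37 were above 10 RPM of Vcan and 23 of Hapln1, and 8 were above 10 RPM of both. Hapln1 was found in 8 of the 37 cells with Vcan (21.6%) and in 15 of the 38 cells without it (39.5%). In type 3, 1 of 4 cells with Vcan and 10 of 18 cells without it had Hapln1, and in type 2 the counts were 2 of 9 and 4 of 10. In type 1 the order was the other way round, with 5 of 24 cells with Vcan and 1 of 10 cells without it. At P2 both cells above 10 RPM of Hapln1 had Vcan. The types differ in their shares of both genes, so the count over all P5 cells mixes them. Cells of a group share a pool, and these counts have no test.

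**Figure D5:**
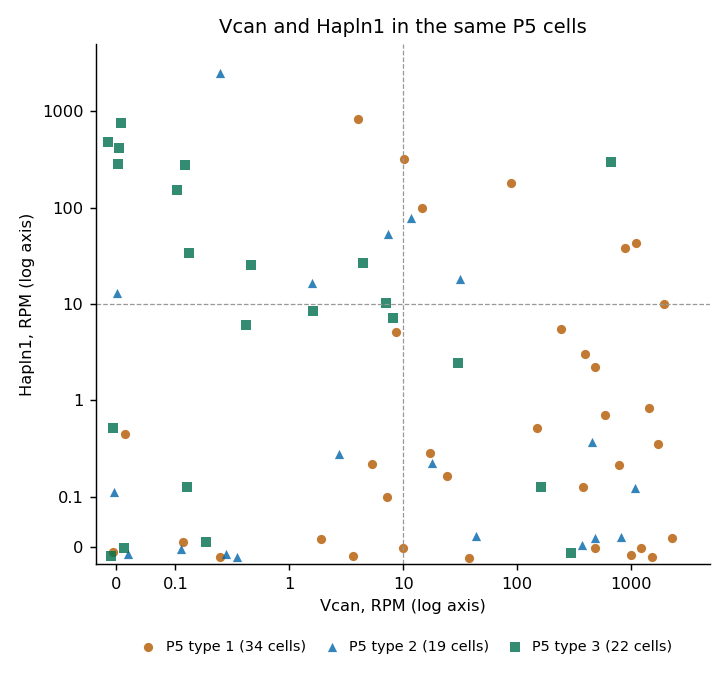
Hapln1 against Vcan in each of the 75 P5 cells, both in RPM on log axes with cells at 0 drawn at the edge and spread slightly, by type. Dashed lines mark 10 RPM; 8 cells lie above both, and 10 of the 11 type 3 cells with Hapln1 lie to the left of the Vcan line.

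Ncan was present with either of them. Of the 25 cells above 10 RPM of Hapln1 at any age, 20 were above 10 RPM of Ncan and 10 of Vcan. Of all cells with Vcan, 96 had Ncan (90.6%), and of those without Vcan, 99 had it (84.6%). No cell was above 10 RPM of more than 5 of the 8 genes. The 1 cell with 5 was the P5 type 2 cell with Acan, which carried oligodendrocyte lineage transcripts (described below).

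The tenascins were above 10 RPM in few cells. Tnr, the tenascin of perineuronal nets, had a read pair in 93.3% of cells but was above 10 RPM in 26. Its pooled levels were 36.4 RPM (36 to 36.8) at E18 with 12 of 82 cells, 3.50 RPM (3.26 to 3.76), 43.3 RPM (42.6 to 44.1) and 1.97 RPM (1.68 to 2.29) in P2 types 1, 2 and 3 with 2 of 22, 6 of 31 and 0 of 13 cells, and 5.56 RPM (5.31 to 5.81), 38.3 RPM (37.5 to 39.2) and 2.63 RPM (2.40 to 2.88) in P5 types 1, 2 and 3 with 2 of 34, 3 of 19 and 1 of 22 cells. The pooled level was highest in type 2 among the types of each age, but these levels rest on few cells. Without the highest cell, which held 1202 RPM in P2 type 2, 544 RPM in P5 type 2 and 1501 RPM at E18, they were 7.03, 15.3 and 18.2 RPM. Those of types 1 and 3 were 2.06 and 1.05 RPM at P2 and 1.53 and 1.502 RPM at P5 without it. In P2 type 2, 5 cells had at least 2 of the 5 transcripts of medial ganglionic eminence INs described below. They held 94.8% of the Tnr read pairs, and the level in the other 26 cells was 2.69 RPM. In P5 type 2 the cell of 544 RPM carried glial transcripts (described below). The next cell, of 273 RPM, was the only 1 of that group above 10 RPM of Lhx6. The shares of all groups had overlapping intervals.

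Tnc, the tenascin of germinal zones and young glia, was above 10 RPM in 10 cells, 3 at E18, 1 in P2 type 2, and 1, 3 and 2 in P5 types 1, 2 and 3. Its pooled level was 14.0 RPM (13.8 to 14.3) at E18 and 37.5 RPM (36.6 to 38.4) in P5 type 2. The 3 E18 cells held 549, 411 and 228 RPM. No read pair fell on it in P2 types 1 and 3. In P5 type 2, 96.7% of its read pairs came from the cells with glial transcripts, and the level in the other 15 cells was 1.54 RPM.

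Per kilobase of exon, the balance of the 8 genes differed between groups. At E18 Ncan had 60.3 RPM per kb against 10.2 for Vcan, 2.83 for Tnr and 1.80 for Tnc. In P2 type 1 Vcan led with 30.4 RPM per kb over 16.2 for Ncan, and in P5 type 1 they were at 35.3 and 43.4 with Hapln1 at 7.08. In P5 type 3 Hapln1 led with 22.4 RPM per kb over 17.9 for Ncan and 3.44 for Vcan. In P5 type 2 Ncan had 67.9, Hapln1 30.03 and Vcan 10.8 RPM per kb, but without its highest cell Hapln1 was at 1.97, below Vcan. Vcan makes several isoforms that differ in long exons, which counts per gene do not separate.

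Glia make these matrix proteins too, and 7 cells had at least 3 transcripts above 10 RPM of a list of 8 oligodendrocyte lineage genes or of a list of 8 astrocyte and radial glia genes. They were 1 at E18, 1 in P5 type 1, 4 in P5 type 2 and 1 in P5 type 3. The summed level of the astrocyte list ran from 0.757 to 18068 RPM in P5 type 2 cells with a median of 166.6, and its medians were 8.10 RPM in P5 type 1 and 17.1 RPM in P5 type 3. The cell with oligodendrocyte lineage transcripts held 1814 RPM of Pdgfra, 536 of Olig1 and 574 of Sox10. No P2 cell met this count. The 1 astrocyte gene that could be tested in type 1 at P2, Slc1a3, was called higher there with Vcan, at 108.6 RPM in 6 of 22 cells above 10 RPM against 27.7 RPM in 4 of 44 cells of the other types (log2 fold of 1.93), and its part in the Vcan value was not tested. In P5 type 2, 13 of 19 cells had at least 1 astrocyte gene above 10 RPM. Slc1a2 and Fabp7, the 2 testable genes of that list, were called higher there (log2 folds of 1.87 and 3.58, 33.9% of all genes tested called). Both were also called higher in type 2 from P2 to P5 (3.56 and 5.33, 36.9% called). Slc1a2 was called lower in type 1 at P5 (-4.29, 36.2% called). Their part in the values of the 8 genes was not tested.

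The 4 P5 type 2 cells held 74.7% of that group's Vcan read pairs, 59.3% of its Ncan, 100% of its Bcan and Acan and 61.9% of its Tnr, but 1.87% of its Hapln1. Without them type 2 had 49.9 RPM of Vcan with 6 of 15 cells, 252 RPM of Ncan with 14 of 15 cells and 220.2 RPM of Hapln1 with 5 of 15 cells. The Vcan level of P5 type 3 was 26.2 RPM without its 1 such cell, and that of type 1 was 501 RPM. The log2 fold of Vcan in type 1 against the other P5 types was 3.71 when all these cells were left out. At E18, 12 cells had at least 3 of 8 excitatory neuron transcripts and held 36.4% of the Vcan read pairs of that age. Without them Vcan was at 110 RPM with 31 of 70 cells and Ncan at 414 RPM with 65 of 70 cells. At E18, 44 cells had at least 2 of 5 transcripts of medial ganglionic eminence INs such as Lhx6 and Sst, and 3 of them were also among the 12 with excitatory neuron transcripts. These 44 cells had 530.0 RPM of Ncan against 322 RPM in the other 38, and 129.6 against 167.6 RPM of Vcan.

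Vascular, meningeal and microglial lists had no cell with 3 transcripts above 10 RPM, and Pvalb, the marker of the INs best known for perineuronal nets, had no read pair in any group.

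The enzymes and partners of the matrix were looked at by list. Hyaluronan itself is made by Has1, Has2 and Has3, each of which was above 10 RPM in few cells, 1 E18 cell for Has1, 1 P5 type 2 cell for Has2 and 3 cells in all for Has3. The hyaluronan gene with the highest level was Tmem2, a cell surface hyaluronidase, at 45.8 RPM at E18 with 24 of 82 cells and at 89.5, 69.8 and 126.6 RPM in P5 types 1, 2 and 3. Next came Hmmr, a hyaluronan-binding protein of dividing cells, between 5.05 and 8.15 RPM in the groups, and the hyaluronidase Hyal2, between 0 and 13.6 RPM. Of the 13 hyaluronan genes 1 or 2 could be tested in a contrast, and between types only Tmem2 was called, lower in type 3 at P2 (log2 fold of -1.79, where 52.4% of all genes tested were called and their median was -0.58). Of 22 genes of chondroitin sulphate synthesis, B4galt7 and Chsy1, which add linkage and chain sugars, had the highest levels. At E18 they were at 42.9 RPM with 34 cells and at 31.5 RPM with 23 cells, followed by Fam20b, a kinase of the linkage sugar, at 24.7 RPM with 12 cells. Chsy1 was 98.1 RPM in P5 type 1 with 17 of 34 cells, where it was called higher, against 28.5 RPM in type 2 and 44 RPM in type 3, and it was not called at P2. In the contrast of type 1 at P5, 2 of the 22 genes could be tested, with a median log2 fold of 1.16 against 0.20 over all genes tested, of which 36.2% were called. In type 2 at P5 all 3 testable genes were called, where 33.9% of all genes tested were. Fam20b was higher (log2 fold of 2.46), and B4galt7 (-1.46) and Chsy1 (-1.46) were lower. In type 3 at P2, 1 of 2 testable genes was called, B4galt7, which was higher (1.46).

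Ptprz1, the phosphatase whose secreted form is the proteoglycan phosphacan, was called higher in type 2 at both ages, the only 1 of 7 other proteoglycans called in type 2 at both ages. Of these 7 genes 3 could be tested at P2 and 4 at P5, and 33.1% and 33.9% of all genes tested were called. Of the 3070 genes that could be tested in type 2 at both ages, 7.88% were called the same way at both. At P2 it was at 164.8 RPM with 13 of 31 type 2 cells against 57.7 RPM in the other types (log2 fold of 1.498), and at P5 at 420.1 RPM with 15 of 19 cells against 161.9 RPM (1.37). In type 2 at P5, 2 of the 4 proteoglycans that could be tested were called higher and none lower, with a median log2 fold of 0.80 against 0.28 over all genes tested, of which 33.9% were called. The second was Cspg5 (neuroglycan C), whose log2 fold of 1.03 was 0.71 when scaled to counts on genes, and 4 of the 19 cells carry the glial transcripts given above, whose part in these values was not tested.

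Of 16 receptors, Ptprs, the main neuronal receptor of chondroitin sulphate chains, had the highest level and the broadest spread, with 868 RPM in 80 of 82 E18 cells and 1046, 1053 and 1201 RPM in P5 types 1, 2 and 3, above 10 RPM in each of the 75 cells. Its relative Ptprd was called lower in type 1 at P2 (60.2 RPM against 399 RPM, log2 fold of -2.71) and at P5 (28.6 RPM against 423 RPM, -3.84). Ptprd was called higher in type 3 at both ages (1.88 and 1.51). Of all genes that could be tested at both ages, 8.89% were called the same way at both in type 1 and 25.4% in type 3. Vcan and Ptprd were thus called in opposite directions in type 1. At P5, 5 of the 16 receptors could be tested in type 1, none was called higher and 2 were called lower, with a median log2 fold of -0.95 against 0.20 over all genes tested, of which 36.2% were called.

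Of 17 matrix proteases and their inhibitors, 2 could be tested between types. Mmp16, a membrane-bound protease, was called lower in type 1 at P2 (50.01 RPM against 197.99 RPM, -1.96) and at P5 (15.3 RPM against 84.1 RPM, -2.38). In P2 type 1 both testable genes were called lower, with a median log2 fold of -1.88 against -0.09 over all genes tested, of which 36.6% were called. Both were called lower in P2 type 3 as well (median -2.50 against -0.58, 52.4% called). In P2 type 2 both were called higher (2.28 against 0.27, 33.1% called). Mmp16 was called higher in type 3 at P5 (1.36, 54.3% called). Timp2, an inhibitor of such proteases, was called lower in type 3 at P2 (13.3 RPM against 192.4 RPM) and at P5 (48.5 RPM against 103.8 RPM, a log2 fold of -1.08 that was -0.34 when scaled to counts on genes). Of the ADAMTS proteases that cut lecticans, Adamts1 had the highest pooled level over all cells, 16.0 RPM, followed by Adamts20 at 6.79 RPM. Adamts5 (4.89 RPM) was above 10 RPM in 4 cells and Adamts4 (2.37 RPM) in 3.

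By the Pearson correlation of log2(pooled RPM + 1) over the 7 groups, among 5644 genes that 25% or more of a group's cells had above 10 RPM, the genes most like Vcan were Sag (0.98), Nufip2 (0.98), Yaf2 (0.98), Epb41l3 (0.96) and Dlx5 (0.95). Yaf2 was at 38.6 RPM in P2 type 1 and 86 RPM in P5 type 1 and between 0.236 and 10.3 RPM elsewhere. Those most like Hapln1 were Ttll4 (0.97), Gabrb1 (0.96), Vezt (0.96), Rpp40 (0.95) and Rsrp1 (0.94). Gabrb1, a GABA-A receptor subunit, was at 12.8 RPM in P2 type 2 and at 18.1, 22.1 and 19.99 RPM in P5 types 1, 2 and 3, and at or under 0.578 RPM elsewhere. Vcan and Hapln1 themselves correlated at -0.33 and Vcan and Ncan at 0.12. The 7 points share pools, library sets and the cells of a type, and so many genes over so few points give high values readily.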

How the data were processed

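Single Htr3a-GFP+ cells were captured on a microfluidic chip, and their cDNA was sequenced as read pairs. Per the submitters' processing notes the tools were TopHat2 and HTSeq 0.6.1 and the build was GRCm38. The authors deposited counts of read pairs per gene, not normalized, for 43629 genes in 223 cells, and a coefficient that turns a count into RPM. All columns of cells were used (0 left out) and 0 were identical. Rows without a gene name in the annotation, 1081 of them, held 0.294% of read pairs. A cell had a median of 9463030 mapped read pairs (to 6 digits), computed as the inverse of its coefficient, and 10 RPM is at least 37.1 read pairs.

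With 1 pool per age no test was made. Pooled RPM, shares of cells above 10 RPM, folds with 1 RPM added, and calls were computed in Python 3.11.15 with numpy 2.4.6, pandas 2.3.3 and scipy 1.17.1, tested on simulated data, and drawn with matplotlib 3.10.9. Doublets were not called here. Cell types are the authors' assignment. Alternatives changed the pseudocount, threshold, depth, library size (total counts, edgeR 4.0.16 TMM or DESeq2 1.42.0 size factors, in R 4.3.3), weighting and cells.

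The 8 genes and all lists were chosen with earlier results of these data known. Named are the 8 genes, list genes called with 1 sign at P2 and P5 or else the 3 highest of a list, and the 5 genes most like Vcan and Hapln1. Cspg5, Ptprs, Slc1a2, Slc1a3, Fabp7, Lhx6, Has1, Has2, Has3, Adamts1, Adamts4, Adamts5, Adamts20, Pvalb and the marker genes of single cells were named after their values were seen. Promoter sequences are RefSeq's. Protein sequences were not used here.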

Additional observations from a re-analysis of the deposited data

Results flagged for a closer look

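A pair of genes had folds from P2 to P5 of opposite sign in different types; the difference between types was not tested, and each age is 1 pool. For Vcan the log2 fold of pooled RPM was 0.21 in type 1, 0.91 in type 2 and -1.73 in type 3, and in type 2 it turned to -0.71 without the cells with glial transcripts. Of these only the type 3 fold was called, where 53.9% of 2960 genes were. For Ncan the log2 fold was 1.42 in type 1, 1.26 in type 2 and -0.69 in type 3, and the last turned to 0.70 without the highest P2 cell, so that the 3 types then had 1 sign. All P2 cells are in library set A, and the part of the set in these values cannot be told apart from that of age.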

How the results depend on the processing

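No paired analysis was possible because the cells' replicate numbers pair no cells and no result comes from a test; types were compared within library sets at P5 instead, as values. Each log2 fold of Vcan in type 1 kept its sign under all alternatives run. At P2 (2.12) it was 2.03 with 10 RPM added, 2.19 by total counts, 2.26 by TMM, 2.28 by DESeq2 factors, 1.99 with cells weighted equally, 1.97 as a difference of mean log2(RPM + 1), 1.65 without the highest type 1 cell and 2.28 without the highest other cell. At P5 (2.28), in the same order, it was 2.18, 2.07, 2.18, 2.15, 2.17, 3.40, 2.14 and 2.63, and it was 0.15, 3.83 and 1.56 in library sets B, C and D alone and 3.71 without glial marker cells. For Hapln1 in type 3 at P2, where type 3 has no read pair and the value (-3.10) depends on the pseudocount, it was -6.26 with 0.1 RPM added, -0.81 with 10 RPM, -3.96 by total counts, -2.87 weighted equally, -0.24 by mean log2 and -0.44 without the highest other cell. At P5 (0.57) it was 0.52 with 10 RPM, 1.32 by total counts, 0.92 by TMM, 0.87 by DESeq2 factors, 0.66 weighted equally, 2.21 by mean log2, 0.22 without the highest type 3 cell, 2.02 without the highest other cell, -5.74, 0.24 and 2.86 in sets B, C and D alone (set B has 2 type 3 cells), and 0.39 without glial marker cells. Without the cell of 2503 RPM, an alternative added after seeing the data, the log2 fold of Hapln1 turned from 1.29 to -2.53 in type 2 at P5 and from 3.66 to -0.16 in type 2 from P2 to P5. The last value kept the highest P2 cell. With that cell left out as well, type 2 was at 11.6 RPM at P5 and 0.632 RPM at P2. The cause of these shifts was not tested.

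Of 328 values of shares under alternatives, 257 stayed inside the main interval. With at least 1 read pair in place of 10 RPM, Vcan was found in 90.9% of P2 type 1 and 94.1% of P5 type 1 cells (91.2% of the latter at equal depth, 88.2% above 1 RPM), and Hapln1 in 57.9% of P5 type 2 cells (57.9% at equal depth) and 81.8% of P5 type 3 cells (77.3% at equal depth). The shares without glial marker cells, and those of E18 without excitatory or medial ganglionic eminence marker cells, were added after seeing the data, as were the values without P2 cells of that kind and the folds of Ncan and of Hapln1 in types 1 and 2 and between ages without single cells or marker cells, and those of Ncan and of the lists scaled to counts on genes. By Spearman correlation, 4 of the 5 genes most like Vcan and 2 of the 5 most like Hapln1 stayed among the leading ones. Counts of called genes moved by over 1.5 times in all 11 comparisons, both with genes above 10 RPM in 5% or more of the cells and with a fold of at least 4. At P2 the 1176, 1124 and 1539 genes called in types 1, 2 and 3 became 4880, 5376 and 7401 with the looser filter and 452, 397 and 890 with the stricter fold. At P5 the 1427, 1584 and 2217 genes became 5114, 5962 and 6414 and 432, 477 and 1080. From P2 to P5 the 1315, 1753 and 1596 genes became 5261, 6504 and 6839 and 520, 614 and 890. Over all cells the 755 genes of P2 against E18 and the 661 of P5 against P2 became 3491 and 3656 with the looser filter.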
